A study of Mus musculus with 6 samples.

Results

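MHC class I antigen presentation was described through 10 genes taken by symbol from the 18112 genes of the expression table of primary mouse aortic vascular smooth muscle cells (VSMCs). They are the heavy chain genes H2-K1 and H2-D1, the light chain gene B2m, the peptide transporter genes Tap1 and Tap2, the tapasin gene Tapbp, the inducible proteasome subunit genes Psmb8, Psmb9 and Psmb10, and Nlrc5, which encodes a transcriptional activator of the pathway. RNA-seq was made from VSMCs of Smyd2 fl/fl mice (3 libraries) and of Smyd2 SMC-/- mice (3 libraries), called controls and knockouts below, to ask what the loss of the lysine methyltransferase SMYD2 changes. Where 3 values are given for a group, they are those of replicates 1, 2 and 3 in that order. All mice were C57BL/6 by their labels and 8 to 10 weeks old by the methods of the study, and both groups carried Smyd2 alleles with loxP sites around exon 2. In Smyd2 SMC-/- mice a Tagln (SM22α) promoter drove Cre, so that deletion depends on the activity of that promoter, which some other cell types, such as myeloid cells, are reported to share. The labels give passage 6 and medium with 10% serum, while the methods give an earlier passage and serum starvation. The study describes its data in general as drawn from at least 3 independent experiments, with 3 libraries per genotype here, but no source says whether these libraries came from separate animals or cultures. The p-values therefore measure the spread between these libraries, which may be technical.

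MHC class I molecules show peptides from the inside of a cell to CD8 T cells. The proteasome cuts proteins into peptides, TAP carries these into the endoplasmic reticulum, and tapasin with its partners helps load them onto a heavy chain paired with beta-2 microglobulin. Nearly all nucleated cells, vascular smooth muscle included, make these proteins, and interferon raises many of them, among them the inducible proteasome subunits that replace their constitutive counterparts. NLRC5 acts at the promoters of these genes together with RFX, CREB family and NF-Y proteins.

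Values are FPKM, which scales the fragments of a gene to its transcript length and to the depth of the library, and levels of different genes are compared on this scale. Depth, as read from how low FPKM values step, was about 19000000, 20450000 and 20100000 fragments in the controls, and 17750000, 19950000 and 19900000 in the knockouts. At that depth 1 fragment on a transcript of 2000 bases was worth 0.0257 to 0.0296 FPKM. The estimates are approximate, since 68.8% to 75.4% of low values came to within 0.15 of a whole number of fragments (30% is the share chance gives).

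Smyd2, the targeted gene (NCBI Gene number 226830, chr1:189880492-189922363 on the minus strand of GRCm38), had 7.87, 3.10 and 3.0 FPKM in the controls and 1.67, 0.40 and 0.80 FPKM in the knockouts. All 3 knockout values were under all 3 control values (exact permutation test, two-sided, p = 0.1, and 3 against 3 libraries can give no smaller p). The log2 fold change was −1.48 (SE 0.389, adjusted p = 0.105 in limma; the block on replicate number gave 0.0189). The value counts all exons, including those outside the deleted exon 2, and so is no direct reading of the deletion.

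The replicate 1 libraries of both genotypes stood apart from the others, and most of the spread in the MHC class I genes lay there. In both genotypes, 9 of the 10 genes were lower in replicate 1 than in both other libraries, as were 21.7% of the 12565 genes tested, and Tap2 was so in the controls only. For H2-K1, H2-D1, B2m, Tap1, Psmb8 and Psmb10, FPKM + 1 was at least 2-fold lower in replicate 1 than in each other library of both genotypes, which held for 2.36% of the genes tested. The median difference of the 10 genes between the mean of replicates 2 and 3 and replicate 1 was 1.40 on the log2(FPKM + 1) scale in either genotype, against −0.031 in the controls and −0.144 in the knockouts for all genes tested. For 11 other subunits of the 20S proteasome core, which all cells use, the same medians were 0.10 and −0.23. Of the other lists described below, other class I genes had 0.77 and 1.03, partners of peptide loading 0.40 and 0.51, and regulators 0.46 and −0.03. The constitutive catalytic subunits had 0.02 and −0.04, activators and assembly factors of the proteasome 0.26 and 0.18, and costimulation and adhesion genes 1.04 and 0.81. NKG2D ligands had 0.72 and 0.65, and MHC class II genes 0.31 and 0.25. Among the cell type markers, those of fibroblasts had 0.95 and 0.09, and of smooth muscle −0.16 and 0.62. Leukocyte markers had −0.07 and −0.23, and the endothelial marker tested had 0.21 and 1.33. What sets replicate 1 apart is not given in the sources, and its part in the differences between genotypes is given below as values with and without those libraries.

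**Figure D1:**
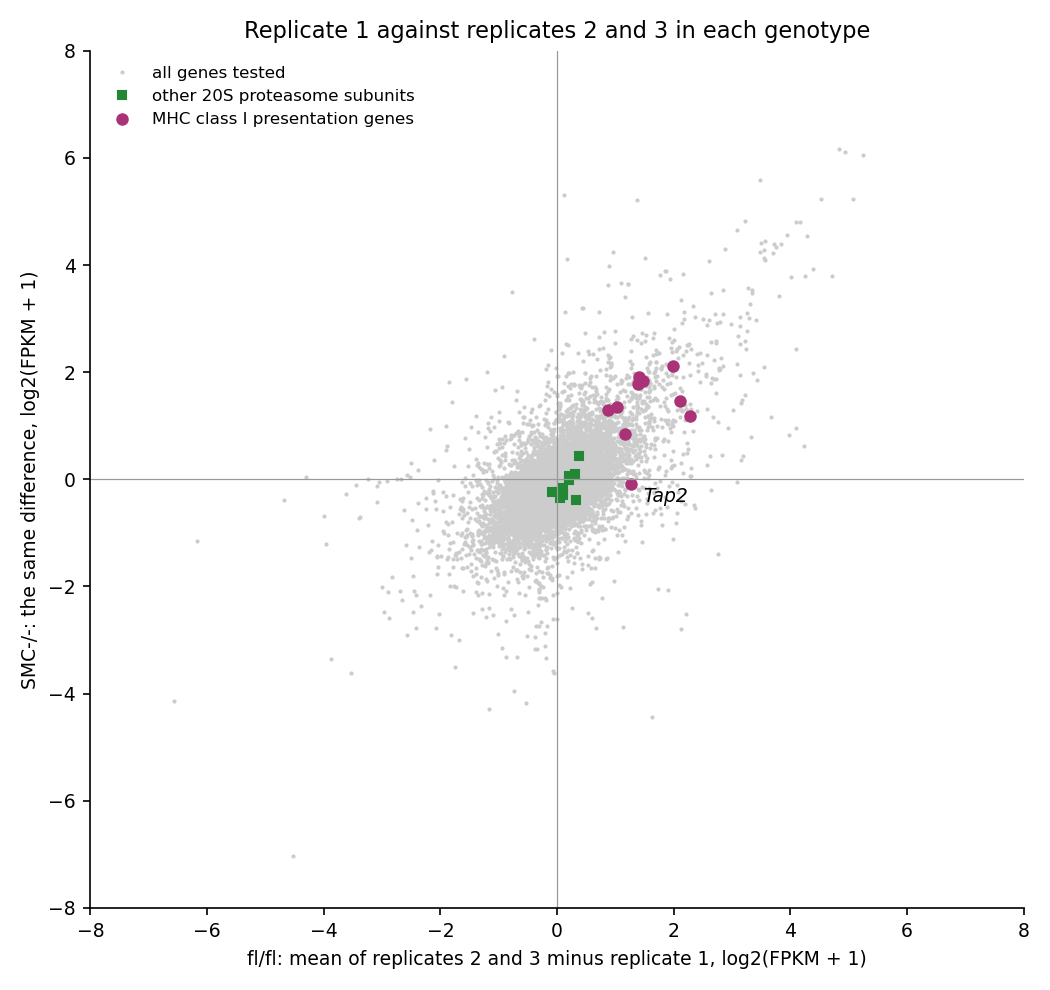
Difference between the mean of replicates 2 and 3 and replicate 1, in log2(FPKM + 1), in the controls (x axis) and knockouts (y axis), with 1 point per gene. The MHC class I genes (purple) lie above 0 in both genotypes except Tap2, at 1.27 and −0.08, while the 20S proteasome subunits (green) lie around 0.

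The cells carried the smooth muscle marker Acta2 at 761, 682 and 683 FPKM in the controls and 201, 268 and 262 FPKM in the knockouts (log2 fold change −1.55, adjusted p = 0.00803 in limma). Of 8 smooth muscle markers 5 were tested, and Acta2 alone was called with or without the replicate block, while in replicates 2 and 3 alone Lmod1 was also called, as higher (log2 fold change 0.83, adjusted p = 0.00322 in limma). Of all genes tested, 1.21% were called lower without the block and 5.72% with it, and 12.1% were called higher in replicates 2 and 3 alone. Tagln and Cnn1 were lower in the replicate 1 pair, by 2.60 and 2.57 on the log2 scale, and had log2 fold changes of −0.08 and −0.07 in replicates 2 and 3 alone. These 3 genes were chosen after seeing the values. Myh11, Des and Myocd, which mark differentiated smooth muscle, had at most 0.22, 0.22 and 0.48 FPKM in any library. The 8 markers summed to 922, 821 and 814 FPKM in the controls and 263, 429 and 376 FPKM in the knockouts. In these bulk samples fewer cells of a type and less RNA per cell cannot be told apart.

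Between genotypes, the largest differences among the 10 genes were those of H2-D1, whose mean FPKM in the knockouts was 0.532 times that in the controls, and of Tap2, at 1.98 times, and for all 10 the test without a block gave no call. Replicate 1 carried part of the Tap2 ratio. In replicates 2 and 3 alone it was 1.52, below those of Nlrc5 (1.78) and Psmb8 (1.64), while that of H2-D1 was 0.552. H2-D1 was lower and Tap2 higher in each knockout library than in the control of its number. These pairs rest on replicate number alone, and departures from the group means in replicates 2 and 3 also correlated across numbers (0.461 and 0.439). H2-D1 was called in each of the 3 fits that block or leave out replicate 1, and Tap2 in 2 of them but not with the block on replicate number. Log2(FPKM + 1) was compared with limma for the 12565 genes that averaged 0.5 FPKM or more, as all 10 MHC class I genes did, and a gene was called at an adjusted p under 0.05. For genes with low FPKM the pseudocount makes this fold change too small. Of the 10 genes, 0 were called lower and 0 higher in limma, where 152 of all genes were called lower (1.21%) and 154 higher (1.23%). Rescaled to TPM, 99 were called lower and 247 higher, and over all genes the median log2 fold change moved from −0.018 to 0.095. At an unadjusted p under 0.05, 1 of the 10 genes (Tap2) passed, as did 1405 lower and 1151 higher genes of the table. Blocked on replicate number, 1 of the 10 genes was called lower (H2-D1) and 0 higher, against 719 lower (5.72%) and 593 higher (4.72%) of all genes. With replicate 1 set against replicates 2 and 3 as a block, 1 was lower (H2-D1; background 11.1%) and 1 higher (Tap2; background 9.17%). In replicates 2 and 3 alone, with 12462 genes tested, H2-D1 was again called lower (background 17.3%) and Tap2 higher (background 12.1%). Counts of 0 or 1 among 10 genes stand close to these shares and give no result about the genes as a group. The median log2 fold change of the 10 genes was 0.20 in the fit without a block, beside −0.018 for all genes, and 0.32 beside −0.060 in replicates 2 and 3 alone.

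The promoters of the MHC class I genes are shown for the letters they hold. The motifs were chosen after promoter sequences had been read, so that finding them in these windows is no test. Whether they bear on the levels across libraries was not tested. The RefSeq promoter table used here (GRCm38.p6) held 8 of the 10 genes and had no entry for Tap2 and Nlrc5, which RefSeq annotates. The 250 bases before the start were searched on both strands for AANNGAAA, the core that interferon regulatory factors bind (IRF core), GGGRNWYYCC, the kappaB site of NF-kappaB (R is A or G, W is A or T, Y is C or T), TGACG, the core of a cAMP response element, and ATTGG, the inverted CCAAT box that NF-Y binds. Of 32851 promoter windows of the same length, 21.3%, 3.9%, 17.8% and 33.8% hold these motifs. Capitals mark every match in the windows of H2-K1 (chr17:34000348-34000597, minus strand), H2-D1 (chr17:35262844-35263093, plus strand) and B2m (chr2:122147437-122147686, plus strand), and in the 225 bases between the RefSeq starts of Psmb9 and Tap1 (chr17:34187331-34187555, plus strand), which run in opposite directions.
H2-K1: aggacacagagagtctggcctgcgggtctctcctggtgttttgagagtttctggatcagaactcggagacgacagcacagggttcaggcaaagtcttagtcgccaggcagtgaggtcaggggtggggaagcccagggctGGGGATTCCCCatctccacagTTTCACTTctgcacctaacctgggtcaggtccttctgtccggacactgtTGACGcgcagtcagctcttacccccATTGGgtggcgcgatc
H2-D1: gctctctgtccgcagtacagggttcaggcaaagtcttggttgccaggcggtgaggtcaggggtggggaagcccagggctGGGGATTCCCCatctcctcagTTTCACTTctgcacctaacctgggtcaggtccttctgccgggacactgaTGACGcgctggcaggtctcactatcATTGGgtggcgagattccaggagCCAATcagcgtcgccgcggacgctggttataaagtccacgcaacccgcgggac
B2m: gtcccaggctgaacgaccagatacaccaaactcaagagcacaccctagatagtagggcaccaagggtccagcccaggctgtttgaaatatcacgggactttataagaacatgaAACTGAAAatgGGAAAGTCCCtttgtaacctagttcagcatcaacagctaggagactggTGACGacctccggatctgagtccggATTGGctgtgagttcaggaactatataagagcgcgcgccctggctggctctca
Psmb9 to Tap1: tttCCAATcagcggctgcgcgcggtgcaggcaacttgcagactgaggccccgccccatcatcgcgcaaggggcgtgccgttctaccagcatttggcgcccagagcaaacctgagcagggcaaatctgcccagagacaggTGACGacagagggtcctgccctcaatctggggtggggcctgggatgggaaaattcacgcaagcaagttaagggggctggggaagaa
The H2-K1, H2-D1 and B2m windows each hold all 4 motifs. In H2-K1 and H2-D1 they come in the same order, kappaB, IRF core on the minus strand, TGACG and ATTGG, with kappaB at −111 in H2-K1 and at −171 in H2-D1 from the start, where matches on both strands and 1 base further on overlap. In B2m the IRF core (−137) comes before kappaB (−126, minus strand). H2-D1 holds 1 more ATTGG on the minus strand. B2m holds TGACG at −78 and ATTGG at −53, with the same spacing as in H2-K1, at −41 and −16, and H2-D1, at −101 and −76. The bases between Psmb9 and Tap1 hold 1 TGACG and, on the minus strand, 1 ATTGG. Tapbp holds 2 ATTGG, and Psmb8 and Psmb10 hold 0 of the 4 motifs in their windows. These are RefSeq starts, and the gene positions given here are from GENCODE, which starts H2-D1, Tapbp, Psmb8 and Psmb9 further upstream, so that the windows of these 4 lie inside the GENCODE genes, as do the bases between Psmb9 and Tap1, and part of the Psmb10 window. A match describes letters and shows no binding.

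The heavy chain binds the peptide and meets the T cell receptor, and H2-K1 and H2-D1 encode the classical heavy chains. H2-K1 (NCBI Gene number 14972, chr17:33996017-34000347, minus strand) had 9.59, 44.9 and 37.4 FPKM in the controls and 9.96, 49.05 and 44.05 FPKM in the knockouts. Same-numbered libraries of the genotypes lay close together and the groups overlapped (log2 fold change 0.14, SE 0.764, adjusted p = 0.947 in limma; two-sided exact permutation p = 0.6). H2-D1 (NCBI Gene number 14964, chr17:35262730-35267499, plus strand) had 56.1, 165 and 149 FPKM in the controls and 23.5, 91.3 and 82.1 FPKM in the knockouts. Each knockout library lay below the control library of its number, but the groups overlapped, because control replicate 1 lay below knockout replicates 2 and 3. The means were 123 ± 58.9 and 65.6 ± 36.8 FPKM (SD, n = 3 each), and the log2 fold change was −0.97 (SE 0.622, adjusted p = 0.446 in limma; two-sided exact permutation p = 0.3). With the replicate block the SE was 0.118 and the adjusted p 0.0202 in limma, and in replicates 2 and 3 alone the log2 fold change was −0.85 (adjusted p = 0.00185). H2-D1 shares 93 of its 2003 windows of 100 bases (4.6%) with transcripts of other genes, 85 of them with H2-Q1, and 0 with H2-K1, so that a small share of its reads could be split with other genes. H2-Q1 itself was listed at 0 to 0.03 FPKM.

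Because both heavy chain genes were low in replicate 1, their ratio within a library, chosen after the values were seen, takes part of that shared difference away. The FPKM of H2-D1 was 5.85, 3.68 and 3.99 times that of H2-K1 in the controls and 2.36, 1.86 and 1.86 times in the knockouts. These ratios did not overlap between the genotypes, with means of 4.51 ± 1.17 and 2.03 ± 0.285 (SD, n = 3 each), and a two-sided exact permutation test on log2 ratios gave p = 0.1, the lowest it can give. Replicate 1 still had the highest ratio in both genotypes. B2m (NCBI Gene number 12010, chr2:122147686-122153083, plus strand), whose product pairs with every class I heavy chain, was the most abundant of the 10 genes. It had 575, 1555 and 1442 FPKM in the controls and 546, 2100 and 1677 FPKM in the knockouts. The groups overlapped (log2 fold change 0.19, SE 0.60, adjusted p = 0.903 in limma, two-sided exact permutation p = 0.6), and in the replicate 1 pair the knockout library was the lower.

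**Figure D2:**
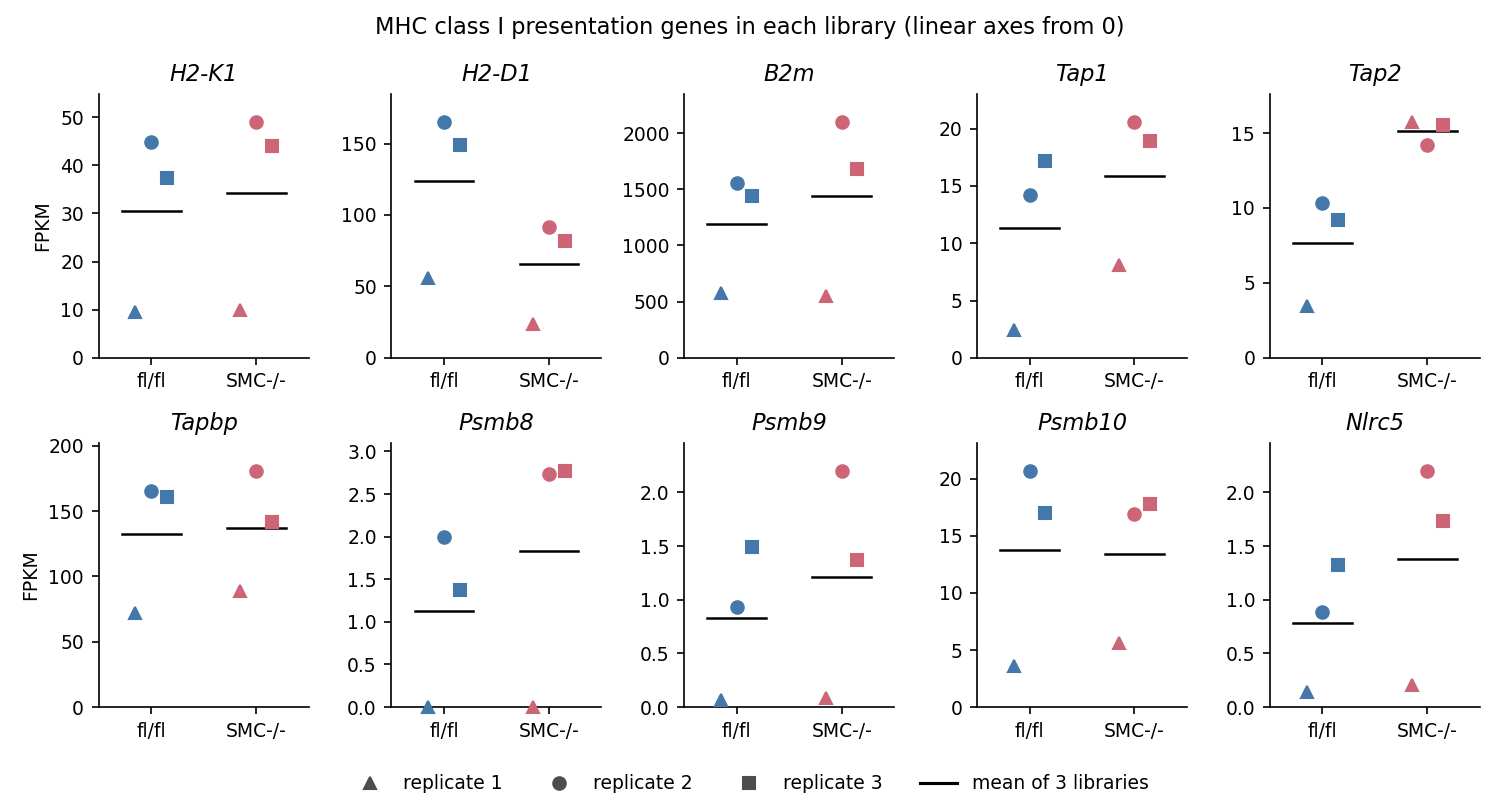
FPKM of each MHC class I gene (y axis, linear from 0) in the 3 control libraries (blue) and the 3 knockout libraries (red), with symbols for the replicate number and a line at the mean. Replicate 1 (triangles) is the lowest library of each genotype for every gene but Tap2 in the knockouts, where the values are 15.8, 14.2 and 15.5 FPKM.

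TAP1 and TAP2 form the transporter that carries peptides into the endoplasmic reticulum. Tap2 (NCBI Gene number 21355, chr17:34203527-34216321, plus strand) had 3.44, 10.3 and 9.19 FPKM in the controls and 15.8, 14.2 and 15.5 FPKM in the knockouts. It was the only one of the 10 genes whose groups did not overlap, with each knockout value above each control value, as for 13.1% of all genes tested, and 0 of the 10 were lower without overlap (15.0% of all genes) (two-sided exact permutation p = 0.1). The mean was 7.65 ± 3.69 FPKM in the controls and 15.2 ± 0.831 FPKM in the knockouts (SD, n = 3 each), with a log2 fold change of 1.01 (SE 0.353, adjusted p = 0.182 in limma). The replicate 1 pair differed by 1.92 on the log2 scale and the other pairs by 0.43 and 0.70. With replicate 1 as a block the adjusted p was 0.0498 in limma, and in replicates 2 and 3 alone the log2 fold change was 0.56 (adjusted p = 0.00940), while the block on replicate number gave an adjusted p of 0.101. Tap1 (NCBI Gene number 21354, chr17:34187553-34197225, plus strand) had 2.43, 14.2 and 17.2 FPKM in the controls and 8.14, 20.6 and 18.9 FPKM in the knockouts. It was higher in the knockouts in each pair of the same number, by 1.41, 0.50 and 0.13 on the log2 scale, but the groups overlapped (log2 fold change 0.68, SE 0.680, adjusted p = 0.646 in limma). Its log2 fold change was 0.31 in replicates 2 and 3 alone (adjusted p = 0.0889 in limma), and −0.08 with only control replicate 1 left out, which leaves the low knockout replicate 1 in. In the annotation Tap1 overlaps the start of Psmb9 on the other strand, and reads from that stretch cannot be told apart unless strand was counted, which the sources do not state.

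Over the same-numbered pairs, 4 of the 10 genes (H2-K1, Tap1, Tap2 and Nlrc5) were higher in the knockouts in all 3 pairs, beside 25.8% of all genes tested, and 1 (H2-D1) was lower in all 3, beside 29.3%. The values do not show that replicates 2 and 3 pair by number. Tapbp (NCBI Gene number 21356, chr17:33915899-33929292, plus strand) encodes tapasin, which holds empty class I molecules at TAP. Its level was 72.3, 165 and 161 FPKM in the controls and 89.1, 181 and 142 FPKM in the knockouts. The groups overlapped throughout (log2 fold change 0.08, SE 0.394, adjusted p = 0.939 in limma), and in replicates 2 and 3 alone the log2 fold change was −0.03.

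**Figure D3:**
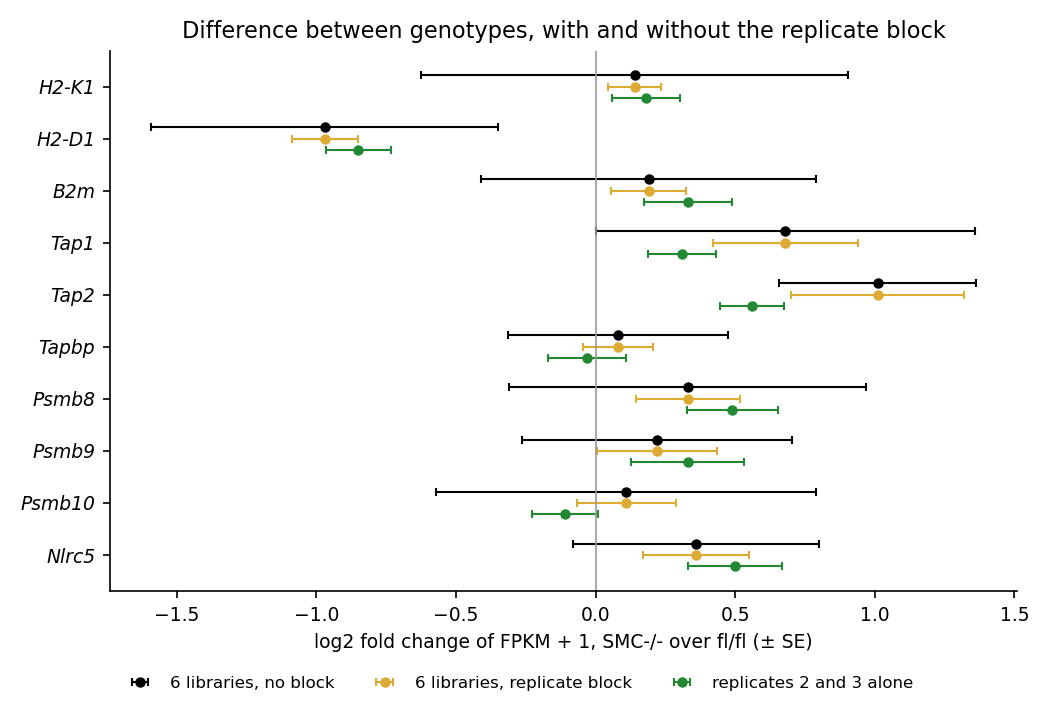
Log2 fold change of FPKM + 1, knockout over control, with its SE, for each gene without a block (black), with the replicate block (yellow) and in replicates 2 and 3 alone (green). The SE runs from 0.353 to 0.764 without the block and from 0.0945 to 0.309 with it, and H2-D1 is the gene below 0 in all 3 fits.

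Psmb8, Psmb9 and Psmb10 encode the catalytic subunits of the immunoproteasome, which replace those of Psmb5, Psmb6 and Psmb7 and favour peptides that fit class I molecules. Psmb8 (NCBI Gene number 16913, chr17:34197721-34201454, plus strand) was listed at 0, 2.0 and 1.37 FPKM in the controls and at 0, 2.74 and 2.77 FPKM in the knockouts, or about 0, 63 and 42 and 0, 84 and 84 fragments. Psmb9 (NCBI Gene number 16912, chr17:34181987-34187764, minus strand) had 0.07, 0.93 and 1.49 FPKM in the controls and 0.08, 2.20 and 1.37 FPKM in the knockouts, with about 2 fragments in each replicate 1 library. Both genes were thus near the limit of detection in replicate 1 of either genotype. Psmb10 (NCBI Gene number 19171, chr8:105935735-105938444, minus strand) was the most abundant inducible subunit, at 3.58, 20.7 and 17.0 FPKM in the controls and 5.65, 17.0 and 17.8 FPKM in the knockouts. The groups overlapped for all 3 genes, and their log2 fold changes were 0.33, 0.22 and 0.11 for Psmb8, Psmb9 and Psmb10 (adjusted p = 0.830, 0.850 and 0.954 in limma). For Psmb10 the log2 fold change was −0.11 in replicates 2 and 3 alone.

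The constitutive subunits did not follow replicate 1. Psmb5 had 76.5, 79.8 and 64.7 FPKM in the controls and 61.6, 60.5 and 59.4 FPKM in the knockouts. Psmb6 had 76.9, 93.2 and 74.9 FPKM and 63.6, 67.3 and 61.0 FPKM in the same order. For both genes every knockout library lay below every control library, as for 15.0% of all genes tested. Psmb7, the most abundant constitutive subunit, had 93.5, 98.7 and 90.5 FPKM and 110, 89.2 and 86.1 FPKM in replicates 1, 2 and 3. Psmb8 reached 0%, 2.51% and 2.12% of Psmb5 in the controls and 0%, 4.53% and 4.67% in the knockouts. Psmb9 reached 0.091%, 0.998% and 1.99% of Psmb6 in the controls and 0.126%, 3.27% and 2.25% in the knockouts. Psmb10 reached 3.83%, 21.0% and 18.8% of Psmb7 in the controls and 5.16%, 19.0% and 20.6% in the knockouts. The inducible subunits were thus a small share of their constitutive counterparts on the FPKM scale in every library, and the replicate 1 libraries were the lowest of each genotype for each pair of subunits. All 3 ratios overlapped between the genotypes. The log2 ratios of FPKM + 1 differed, knockout minus control, by 0.60, 0.57 and 0.10 for Psmb8 to Psmb5, Psmb9 to Psmb6 and Psmb10 to Psmb7. Exact permutation tests gave p = 0.5, 0.4 and 0.8 in that order, where 3 against 3 libraries cannot reach a p under 0.1. The first 2 differences draw on both subunits. Log2 fold changes were 0.33 for Psmb8 and −0.27 for Psmb5, and 0.22 for Psmb9 and −0.34 for Psmb6.

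**Figure D4:**
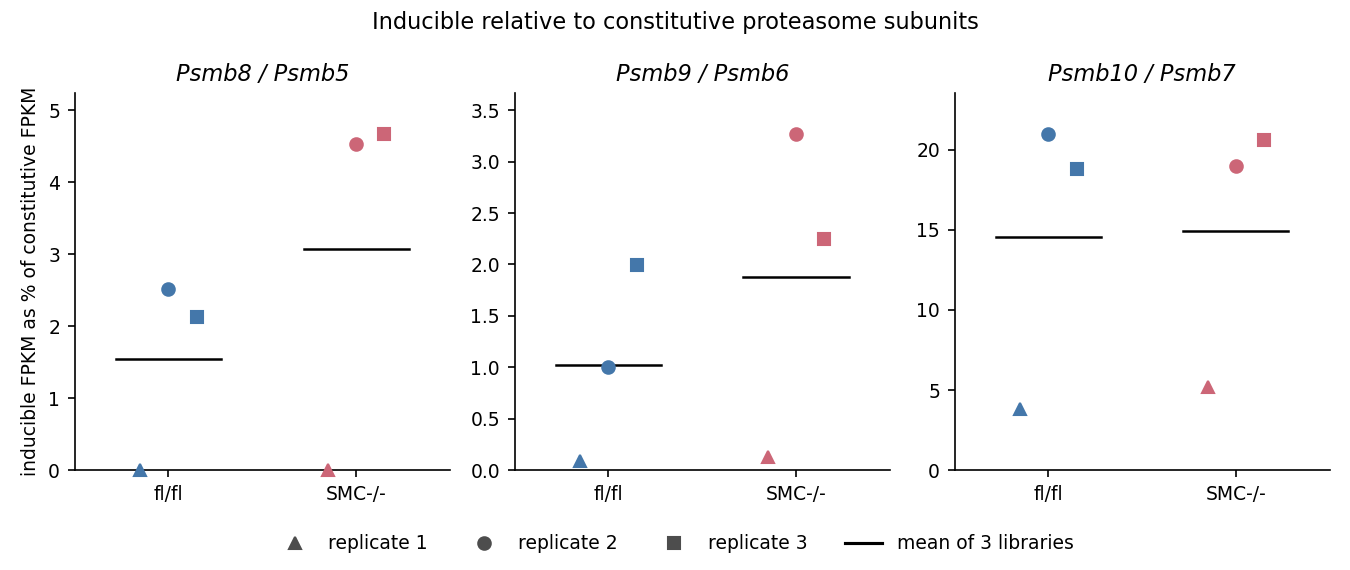
FPKM of each inducible catalytic subunit as a percent of its constitutive counterpart (y axes, linear from 0) in the 3 control (blue) and 3 knockout (red) libraries, with a line at the mean. The replicate 1 libraries lie at 0% for Psmb8, at 0.091% and 0.126% for Psmb9 and at 3.83% and 5.16% for Psmb10.

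Nlrc5 (NCBI Gene number 434341, chr8:94434356-94527272, plus strand) had 0.14, 0.89 and 1.32 FPKM in the controls and 0.21, 2.20 and 1.73 FPKM in the knockouts. That is about 18, 125 and 182 fragments in the controls, and 26, 300 and 236 in the knockouts. It was higher in the knockouts in each same-numbered pair, yet the groups overlapped (log2 fold change 0.36, SE 0.440, adjusted p = 0.712 in limma, and 0.0619 in replicates 2 and 3 alone). By mean FPKM over all libraries, the order of the genes ran from B2m through Tapbp, H2-D1, H2-K1, Psmb10 and Tap1 to Tap2, Psmb8, Nlrc5 and Psmb9. Among neighbours in the controls, the means of B2m (1190 ± 536 FPKM) and Tapbp (133 ± 52.5 FPKM; SD, n = 3 each) lay apart by more than their SDs together, as did those of H2-D1 and H2-K1 and of Tap2 and Psmb8, while the other neighbours in this order did not. The pooled order hides that Psmb10, Tap1 and Tap2 had means of 13.8, 11.3 and 7.65 FPKM in the controls and 13.5, 15.9 and 15.2 FPKM in the knockouts.

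The 5 genes whose centred log2(FPKM + 1) profile over the 6 libraries lay closest to the mean profile of the 10 genes, among 11156 genes compared, were Ifi35, Rab3d, Bnip3, Mill2 and Shisa5. Their root mean square differences from it were 0.092, 0.10, 0.103, 0.109 and 0.109, against a median of 0.771 over all genes compared. Ifi35, an interferon-induced gene, had 15.1, 49.8 and 46.8 FPKM in the controls and 19.6, 50.4 and 43.5 FPKM in the knockouts. Mill2, a gene of the MHC class I-like family that lies outside the MHC, had 1.99, 6.81 and 7.59 FPKM in the controls and 2.14, 7.44 and 7.48 FPKM in the knockouts. The shared feature of these 5 profiles was a low replicate 1 in both genotypes.

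Genes that work with the 10 were read from fixed lists. For comparison with each list below, 1.21% of all genes were called lower and 1.23% higher without a block. With the replicate block these shares were 5.72% and 4.72%. Of 10 partners of peptide loading and transport, 10 were tested and 0 were called with or without the replicate block, with a median log2 fold change of 0.18. With replicate 1 as a block 2 were called higher, Pdia3 and Erap1 (adjusted p = 0.0375 and 0.0494 in limma), where 9.17% of all genes were. Their most abundant gene, Calr, the chaperone calreticulin, had 560, 592 and 569 FPKM in the controls and 449, 752 and 628 FPKM in the knockouts (log2 fold change 0.06, adjusted p = 0.916 in limma). In replicates 2 and 3 alone 3 of the 10 were called higher (12.1% of all genes were), which were Pdia3, Erap1 and Hspa5, named after their values were seen (log2 fold changes 0.51, 0.35 and 0.51; adjusted p = 0.0226, 0.0320 and 0.0184 in limma). Erap1, the peptidase that trims peptides in the endoplasmic reticulum, was also low in replicate 1, at 3.02 against 14.0 and 14.0 FPKM in the controls and 7.95 against 18.6 and 17.7 FPKM in the knockouts. Of the 3 constitutive catalytic subunits, 11 other 20S subunits and 6 activators and assembly factors of the proteasome, 0 were called in limma in any of the 4 fits. By fit, 1.21% to 17.3% of all genes were called lower and 1.23% to 12.1% higher. The medians of these proteasome lists were −0.27, −0.08 and −0.04, with Psmb1 (log2 fold change −0.19) and Pomp (0.34) the most abundant of the latter lists.

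Other class I genes include the nonclassical and class I-like molecules that present to specialised receptors. Of 19 listed, 16 were in the table and 9 were tested, and 0 were called with or without the replicate block (median log2 fold change 0.19). H2-T23, which encodes Qa-1, a ligand of NKG2A receptors, was the most abundant, at 20.3, 93.0 and 85.6 FPKM in the controls and 12.4, 73.4 and 72.2 FPKM in the knockouts (log2 fold change −0.42, adjusted p = 0.841 in limma). With replicate 1 as a block 1 of the 9 was called lower and 3 higher, where 11.1% and 9.17% of all genes were. H2-T23 was the lower (adjusted p = 0.0435 in limma), and H2-Q4, Mr1 and Cd1d1 were called higher (adjusted p = 0.0227, 0.0396 and 0.0455). In replicates 2 and 3 alone, where 17.3% of all genes were called lower and 12.1% higher, H2-Q4, Mr1 and Cd1d1 stayed called (adjusted p = 0.00109, 0.0437 and 0.0235 in limma), H2-T23 was not called (0.0715) and Hfe was called lower (0.0272). These genes were named after their values were seen. H2-Q4 had 3.08, 3.35 and 3.45 FPKM in the controls and 4.23, 9.10 and 7.65 FPKM in the knockouts. H2-Q and H2-T genes are close paralogs, and how the counting shared reads between them is not known.

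Of 21 regulators, which include interferon receptors, JAK kinases, interferon regulatory factors, NF-kappaB subunits and the RFX, CREB and NF-Y proteins, 0 were called without a block (median log2 fold change 0.04). With the replicate block 2 were called lower in limma, the NF-kappaB subunit Rela and the interferon gamma receptor Ifngr1 (adjusted p = 0.0320 and 0.0232), and 19 were not called, where 5.72% of all genes were called lower. Ifngr1 had 40.6, 69.5 and 65.8 FPKM in the controls and 25.3, 33.1 and 36.4 FPKM in the knockouts, so that every knockout library lay below every control library, as for 15.0% of all genes tested (log2 fold change −0.85, SE 0.244, adjusted p = 0.125 without the block). Rela, the most abundant of the list, had 102, 80.5 and 77.1 FPKM in the controls and 59.7, 49.8 and 55.2 FPKM in the knockouts, again with no overlap (log2 fold change −0.64, SE 0.152, adjusted p = 0.0816). In replicates 2 and 3 alone the receptor gene Ifngr2 and the kinase gene Jak2 were called lower as well (adjusted p = 0.00403 and 0.00137 in limma), and the kinase gene Jak1 was called higher (adjusted p = 0.0383), where 17.3% and 12.1% of all genes were. Ifngr2 and Jak2 were also called lower with replicate 1 as a block (adjusted p = 0.0396 and 0.0321 in limma), where 11.1% of all genes were. Rfx5, whose product binds with NLRC5, was called higher with replicate 1 as a block (adjusted p = 0.0469 in limma) and not in replicates 2 and 3 alone (0.0677). These 4 were named after their values were seen.

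Irf1, a transcription factor gene of the interferon response, shared the low replicate 1 of the MHC class I genes and was named for that. It had 5.60, 24.9 and 24.5 FPKM in the controls and 10.8, 19.3 and 21.9 FPKM in the knockouts and was not called (log2 fold change 0.11, adjusted p = 0.945 in limma). Of 6 interferon genes listed, Ifnb1 was in the table, at 0 to 0.07 FPKM. What part these regulators had in the levels of the MHC class I genes was not tested.

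**Figure D5:**
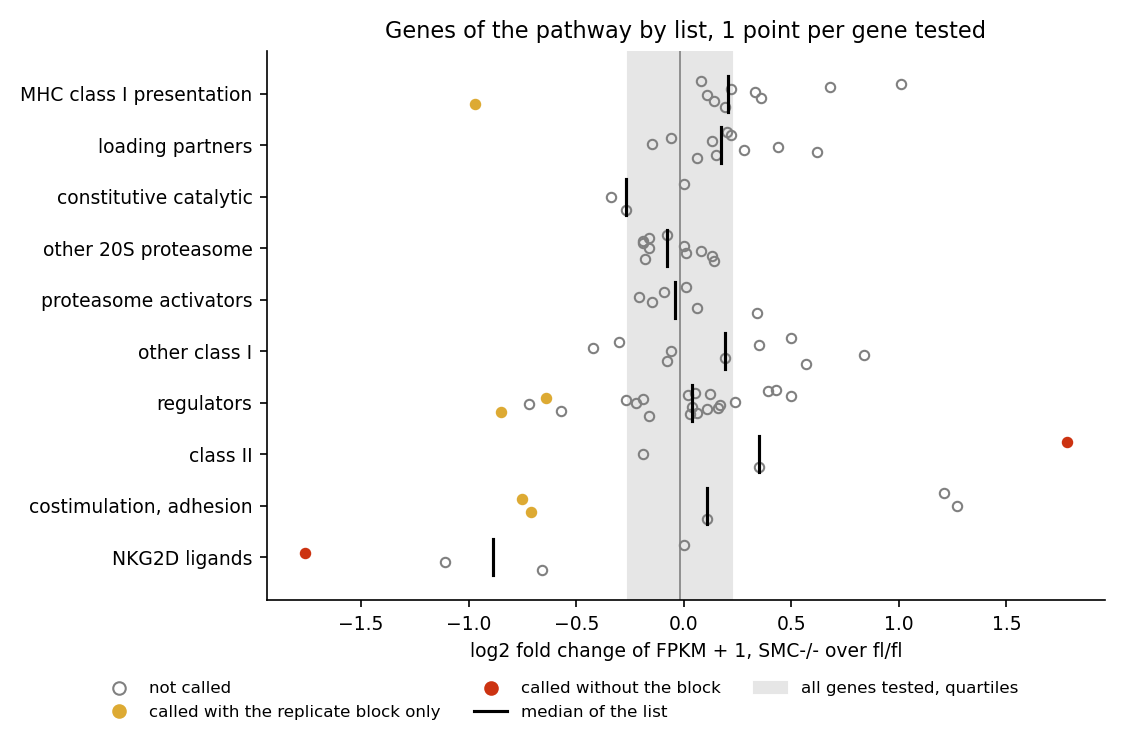
Log2 fold change of FPKM + 1, knockout over control, of the genes tested in the MHC class I and related lists, without the cell type markers (1 point per gene), with the median of the list (black line) and the quartiles of all genes tested (grey band). Red points were called without a block (H2-DMb1 and Raet1e), yellow points with the replicate block only (H2-D1, Rela, Ifngr1, Icam1 and Cd47), and open points were not called.

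MHC class II genes, which antigen-presenting cells use, were near 0 in part. Of 10 listed, 8 were in the table and 3 were tested. H2-Aa, H2-Ab1 and H2-Eb1 had at most 0.16, 0.09 and 0.23 FPKM and the class II transactivator gene Ciita at most 0.07 FPKM in any library. H2-DMb1, which encodes a chain of the class II peptide exchange factor, rose in the knockouts, with 2.84, 4.03 and 3.53 FPKM in the controls and 12.6, 15.8 and 14.5 FPKM in the knockouts (log2 fold change 1.78, SE 0.164, adjusted p = 0.00712 in limma). For its partner chain gene H2-DMa, chosen after seeing the values, the log2 fold change was −0.19 (adjusted p = 0.857).

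The methods of the study describe taking off the endothelium and the adventitia before the cells were grown, and a stain for smooth muscle actin as a purity check. Markers of other cells that could carry MHC class I RNA were read in each library all the same. Of all genes tested, 1.21% were called lower and 1.23% higher without the replicate block, and 5.72% and 4.72% with it. Of 11 leukocyte markers, 10 were in the table, 5 were tested and 0 were called with or without the replicate block, and Ptprc, Adgre1 and Itgam were under 0.1 FPKM in every library. The leukocyte markers summed to 43.9, 30.3 and 26.9 FPKM in the controls and 41.7, 18.5 and 23.4 FPKM in the knockouts. Most of it was Cd14 (10.6 to 37.7 FPKM), which was highest in replicate 1 of each genotype. So were Fcer1g (1.23, 0.25 and 0.25 FPKM, and 0.76, 0.17 and 0.51 FPKM) and Csf1r (0.58, 0.53 and 0.48 FPKM, and 1.66, 1.42 and 1.14 FPKM). Lyz2 (1.04, 3.78 and 4.04 FPKM, and 1.01, 1.41 and 1.69 FPKM) and Cd68 (3.30, 3.8 and 4.41 FPKM, and 2.93, 4.87 and 3.8 FPKM) were lowest in replicate 1. Every knockout value of Csf1r lay above every control value, as for 13.1% of all genes tested. Of 7 endothelial markers 1 was tested and 0 were called with or without the replicate block, with sums of 1.42, 1.83 and 2.05 FPKM in the controls and 1.75, 5.41 and 2.99 FPKM in the knockouts. Kdr was the most abundant of them and carried the rise of the sum in the knockouts, while Pecam1 was lower there without overlap (0.56, 0.88 and 0.92 FPKM, and 0.12, 0.18 and 0 FPKM), Vwf was lower in all 3 pairs (at most 0.22 FPKM), and Cdh5 and Tie1 had at most 0.01 FPKM.

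Of 6 fibroblast markers, all tested, Dpt fell in the knockouts, from 144, 90.3 and 65.5 FPKM to 3.31, 1.15 and 0.63 FPKM (log2 fold change −5.28, adjusted p = 0.00417 in limma), and 5 were not called. Of all genes, 1.21% were called lower and 1.23% higher in that fit. Dcn followed replicate 1 more strongly than the MHC class I genes, at 13.9, 311 and 257 FPKM in the controls and 25.6, 383 and 350 FPKM in the knockouts. Pi16 (1.26, 7.59 and 8.18 FPKM, and 0.37, 2.99 and 1.08 FPKM) and Lum (0, 1.31 and 1.17 FPKM, and 0.26, 14.5 and 10.4 FPKM) were also lowest in replicate 1. The other markers were not, and Dpt was highest in replicate 1 of both genotypes. Col1a1 (362, 444 and 491 FPKM, and 1333, 831 and 522 FPKM) and Pdgfra (18.08, 31.85 and 29.77 FPKM, and 11.82, 4.85 and 7.10 FPKM) were lowest there in the controls and highest there in the knockouts. With replicate 1 as a block, Pdgfra and Pi16 were called lower as well (adjusted p = 0.0283 and 0.0277 in limma) and Lum, Dcn, Kdr and the leukocyte marker Csf1r higher (0.0467, 0.0418, 0.0349 and 0.0217), where 11.1% and 9.17% of all genes were. Dcn was not called in replicates 2 and 3 alone (0.0778), and Lyz2 was called lower there (0.00286). The markers of other cells apart from Dpt, Col1a1, Cd14 and Kdr were named after their values were seen. The fibroblast markers summed to 539, 886 and 852 FPKM in the controls and 1370, 1240 and 891 FPKM in the knockouts, led by Col1a1, which cultured smooth muscle also makes. What part a shift in cell makeup or cell state had in the MHC class I differences was not tested.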

How the data were processed

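Poly-A RNA of cultured aortic VSMCs (3 control and 3 knockout libraries) was sequenced by the authors on BGISEQ-500 as paired reads of 100 bases, filtered with SOAPnuke, mapped with HISAT and Bowtie2 and quantified with RSEM. The labels name other RNA and library kits than the methods. The authors deposited FPKM, rounded to 2 decimals, and tool versions and the genome build are not given in the sources used here. Groups came from the sample titles.

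Log2(FPKM + 1) was used, with 1 as the pseudocount, and genes averaging 0.5 FPKM or more were compared with limma 3.58.1 (R 4.3.3; lmFit, eBayes with trend and robust settings) with Benjamini-Hochberg adjustment over all genes tested. The code was checked on simulated data. Single values were compared with exact permutation tests (Python 3.11.15, numpy 2.4.6). The replicate numbers in the sample titles paired the libraries, since departures from the group means were correlated across genes between libraries of the same number (0.615, 0.46 and 0.527 for replicates 1, 2 and 3), and limma was also fitted with the number as a block. Replicates 2 and 3 also correlated across numbers (0.461 and 0.439), so that the values set replicate 1 apart and do not show that 2 and 3 pair by number. Positions are from GENCODE M21 (GRCm38), matched by RefSeq transcript.

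The members and lists were chosen with earlier results of these data known, and the motifs after promoter sequences were read. Named were all 10 members, Smyd2, the genes of each list called with or without the block (up to 4) with its most abundant gene, and the 5 most similar profiles. Alternatives were a pseudocount of 0.1, no filter, a mean of at least 1 FPKM, blocks, replicates 2 and 3 alone, each library left out, TPM, quantile normalization and the cutoffs in the methods of the study (fold above 2, adjusted p under 0.01), where a figure legend of the study gives a stricter p that was not used. Count-based tests were not run.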

Additional observations from a re-analysis of the deposited data

How the results depend on the processing

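The counts of genes called depended on the handling of replicate 1 and on which library was left out. Of all genes, 719 were lower and 593 higher with the replicate block, 1398 and 1152 with replicate 1 as a block, and 2160 and 1507 in replicates 2 and 3 alone. TPM gave 99 lower and 247 higher, and the cutoffs in the methods of the study 26 and 27 (158 and 216 together with replicate 1 as a block, an alternative chosen after seeing the data). With each library left out in turn, 16 to 310 genes were lower and 16 to 372 higher. Without control replicate 1 the counts were 157 and 121, and without knockout replicate 1 they were 310 and 372. Without a replicate 2 or 3 library of either genotype they were 16 to 28 and 16 to 27. The number of MHC class I genes called lower went from 0 to 1 with the replicate block, with replicate 1 as a block and in replicates 2 and 3 alone, and the number called higher from 0 to 1 in the last 2 of these. The cause was not tested, although the blocks and the removal of replicate 1 take its difference out of the spread by construction. The replicate block changed no other call of an MHC class I gene.

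H2-D1 was lower in all 15 settings (log2 fold change −1.46 to −0.36, adjusted p 0.00185 to 0.699 in limma), with −0.97 under either block and −0.85 in replicates 2 and 3 alone, where it was called. Tap2 was higher in all 15 (0.56 to 1.26, adjusted p 0.0094 to 0.42), and was called with replicate 1 as a block (1.01) and in replicates 2 and 3 alone (0.56). Nlrc5 was higher in all 15 (0.07 to 0.79). For the other 7 genes the direction turned in at least 1 setting and no setting gave a call. For H2-K1, B2m, Tap1, Psmb8 and Psmb9 it turned only where 1 library was left out, which unbalances the replicate 1 difference, and in replicates 2 and 3 alone they stayed above 0 (0.18, 0.33, 0.31, 0.49 and 0.33). In replicates 2 and 3 alone Tapbp was −0.03 and Psmb10 −0.11. With each library left out, the log2 fold change ran from −0.53 to 0.84 for H2-K1, −0.27 to 0.79 for B2m, −0.08 to 1.13 for Tap1, −0.30 to 0.36 for Tapbp, −0.14 to 0.97 for Psmb8, −0.12 to 0.67 for Psmb9, −0.60 to 0.60 for Psmb10. Without control replicate 1 the log2 fold changes of H2-K1, B2m, Tap1, Tapbp, Psmb8, Psmb9 and Psmb10 were −0.53, −0.27, −0.08, −0.30, −0.14, −0.12 and −0.60. Of 140 alternative values, 118 kept direction and side of the threshold, 5 passed it and 17 reversed. The difference in the log2 ratio of Psmb10 to Psmb7, knockout minus control, was −0.000138 in replicates 2 and 3 alone, and −0.59 to 0.70 with each library left out. The ratios were run only with the replicate block, in replicates 2 and 3 alone and with each library left out. The differences of Psmb8 to Psmb5 and Psmb9 to Psmb6, which also hold the lower Psmb5 and Psmb6 of the knockouts, were above 0 in each of these settings. Those of H2-D1 to H2-K1 and Tap2 to Tap1, run only in replicates 2 and 3 alone and chosen after seeing the data, were −1.03 and 0.25 there. Depth limits the reading of Psmb8 and Psmb9 in replicate 1, at about 0 and 2 fragments.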

Other observations

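Ligands of NKG2D, an activating receptor of natural killer and T cells, have a class I-like fold but carry no peptide. Of 9 listed, 5 were in the table and 4 were tested, with a median log2 fold change of −0.88 beside −0.018 for all genes. Raet1e fell in the knockouts, with 27.2, 42.2 and 37.7 FPKM in the controls and 7.32, 13.2 and 9.24 FPKM in the knockouts (log2 fold change −1.76, SE 0.251, adjusted p = 0.0235 in limma). For Raet1d, chosen after seeing the values, the levels were 7.34, 6.14 and 6.75 FPKM in the controls and 1.59, 4.26 and 2.40 FPKM in the knockouts (log2 fold change −1.11, adjusted p = 0.0873). For both genes the groups did not overlap, as for 15.0% of all genes tested in that direction. With replicate 1 as a block 2 of the 4 were called lower, Raet1e and Raet1d (adjusted p = 0.00115 and 0.0258 in limma), where 11.1% of all genes were. In replicates 2 and 3 alone 3 were called lower, where 17.3% of all genes were. These were Raet1e, Raet1d and H60b (adjusted p = 0.000412, 0.0243 and 0.0285 in limma), the last also named after its values were seen. Raet1 genes are near-identical copies, so that the split of reads between them is uncertain.

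Surface proteins that help or restrain the contact with T cells and phagocytes were read from a list of 8, of which 6 were in the table and 5 were tested. Without a block 0 were called, and with the replicate block 2 were called lower in limma, where 5.72% of all genes were. The adhesion molecule gene Icam1 had 63.4, 68.4 and 61.4 FPKM in the controls and 42.7, 32.2 and 39.7 FPKM in the knockouts (log2 fold change −0.75, adjusted p = 0.0542, or 0.0377 with the block). Cd47, whose product signals to phagocytes not to engulf the cell, had 18.9, 42.3 and 45.6 FPKM in the controls and 13.4, 22.9 and 25.6 FPKM in the knockouts (log2 fold change −0.71, adjusted p = 0.362, or 0.0327 with the block). Vcam1, the most abundant of the list, had, in the same order, 16.7, 191 and 171 FPKM and 76.2, 329 and 282 FPKM, with a low replicate 1 in both genotypes (log2 fold change 1.21, adjusted p = 0.574, or 0.0349 with replicate 1 as a block and 0.00536 in replicates 2 and 3 alone). For Cd80, also chosen after seeing the values, they were 7.37, 16.8 and 15.7 FPKM and 42.4, 30.5 and 24.7 FPKM, with no overlap between the groups, as for 13.1% of all genes tested in that direction (log2 fold change 1.27, adjusted p = 0.107). Cd80 was not called with the replicate block (adjusted p = 0.0902 in limma) or with replicate 1 as a block (0.0527). It was called higher in replicates 2 and 3 alone (0.00492), where 12.1% of all genes were.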
